A study of Homo sapiens with 40 samples.

Results

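The R-spondin and WNT feedback genes described here are RSPO3, LGR4, LGR5, LGR6, ZNRF3, RNF43, AXIN2, DKK1, LEF1 and TCF7. They were matched by gene symbol, and all 10 were found among the 62486 gene rows of the count table. The set was chosen on a measured value, the level of RSPO3 in the RNA-seq libraries of SETDB1 knockout cells against control cells, so the RSPO3 difference is given as a description with no test. The other 9 genes are treated here as chosen for their roles in the same pathway, though the contrast was known when they were chosen. Expression was measured in A549, an established human lung adenocarcinoma line, grown in DMEM with 10% FBS and penicillin/streptomycin. Control cells (CT) and cells in which SETDB1 was disrupted with CRISPR/Cas9 from the PX458 plasmid (KO) were each represented by 3 libraries of stranded total RNA. The KO cells carry no other labelled change, and whether they derive from 1 clone, and how the control cells were treated, is not given in the sources used here. SETDB1 is an enzyme that methylates histone H3 at lysine 9 and takes part in gene silencing.

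WNT ligands bind Frizzled receptors and the co-receptors LRP5 and LRP6, which protects beta-catenin from its destruction complex and lets it act with TCF/LEF factors on target genes. ZNRF3 and RNF43 are membrane ubiquitin ligases that remove Frizzled receptors from the cell surface. R-spondins, secreted ligands, bind LGR4, LGR5 or LGR6 together with ZNRF3 or RNF43 and clear the ligases, which raises the response to WNT. AXIN2, DKK1, ZNRF3, RNF43, LEF1 and TCF7 are known targets of the pathway, and the first 4 of these restrain it.

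The libraries held 18065062 to 48364919 counts, of which mitochondrial genes took 21.0% to 24.0%. Levels are given in CPM, counts-per-million of the library total after TMM scaling. They are not divided by gene length, so levels of different genes are not compared. SETDB1 itself was at 37.5, 39.6 and 38.7 CPM in control and 23.4, 21.2 and 21.1 CPM in KO libraries, so its transcript was lower in all 3 KO libraries, at 56.8% of the control mean, but was not lost. Keratins of the line were abundant in every library (KRT8, 2271 ± 139 CPM in control and 6594 ± 261 CPM in KO, SD over 3 libraries). Of the lung genes looked at, NKX2-1, SFTPC and SFTPA1 were at or near 0. NAPSA went from a mean of 0.917 CPM in control to 1.33 CPM in KO, and SFTPB from 0.406 to 0.230 CPM. Of 11 genes of the epithelial list, 7 were tested and all 7 were higher in KO (edgeR adjusted p under 0.05), as were 32.8% of all genes tested, with a summed level of 4461 to 4884 CPM in control and 10823 to 11626 CPM in KO libraries. Their log2 fold changes ran from 0.10 for KRT7 to 2.49 for KRT19. KRT7, KRT8 and KRT18 lie on chromosome 12 (median of its genes, 0.37). The summed level of 5 fibroblast markers ran from 4.74 to 4.86 CPM in control and from 4.89 to 5.21 CPM in KO, with DCN at 0 counts. Within that sum PDGFRA went from 1.30 to 0.128 CPM, COL3A1 from 0.320 to 0.873 CPM and COL1A1 from 3.10 to 3.83 CPM, all past the threshold. Of 4 endothelial markers, 3 were in the table and summed to 0.722 to 1.05 CPM in control and 4.15 to 5.62 CPM in KO, nearly all of the latter from CDH5, while VWF had 2 and 3 counts. The 4 immune markers summed to 0.103 to 0.221 and 0.437 to 0.507 CPM, with CD3E at 0 counts. The part of these differences in the results below was not tested.

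The stretches upstream of 4 of the genes are shown, taken by their levels. RSPO3 and DKK1 had the lowest KO levels relative to control among the 10 genes. LGR4 and LGR6 were the 2 tested genes with higher KO levels. Sequences are from RefSeq on GRCh38.p14, run 5′ to 3′ on the strand of the gene and cover the 250 bases before its start. RSPO3 lies on the plus strand (chr6:127118421-127118670), DKK1 on the plus strand (chr10:52314031-52314280), LGR4 on the minus strand (chr11:27472791-27473040) and LGR6 on the plus strand (chr1:202193549-202193798). Capitals mark a match to CTTTGAT or CTTTGAA, 2 forms of the TCF/LEF binding consensus, on either strand.
RSPO3: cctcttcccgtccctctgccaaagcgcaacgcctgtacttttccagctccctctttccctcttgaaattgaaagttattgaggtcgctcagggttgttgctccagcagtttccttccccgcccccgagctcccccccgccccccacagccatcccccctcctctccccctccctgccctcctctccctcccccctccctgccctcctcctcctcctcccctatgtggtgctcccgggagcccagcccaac
DKK1: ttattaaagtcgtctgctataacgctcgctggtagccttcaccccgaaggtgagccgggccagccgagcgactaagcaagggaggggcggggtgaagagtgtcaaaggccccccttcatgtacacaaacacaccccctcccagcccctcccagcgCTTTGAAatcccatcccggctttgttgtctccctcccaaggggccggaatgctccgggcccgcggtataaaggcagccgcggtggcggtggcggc
LGR4: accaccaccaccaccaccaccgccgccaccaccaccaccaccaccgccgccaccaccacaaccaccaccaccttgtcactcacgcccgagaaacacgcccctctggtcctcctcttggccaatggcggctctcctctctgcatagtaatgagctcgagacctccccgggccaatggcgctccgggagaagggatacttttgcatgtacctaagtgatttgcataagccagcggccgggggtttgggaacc
LGR6: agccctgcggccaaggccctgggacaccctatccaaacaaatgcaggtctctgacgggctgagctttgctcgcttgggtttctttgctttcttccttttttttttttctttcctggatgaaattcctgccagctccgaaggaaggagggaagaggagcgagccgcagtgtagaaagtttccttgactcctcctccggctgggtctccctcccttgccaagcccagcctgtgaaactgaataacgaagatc

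The promoter table, with windows from 250 bases before to 50 bases after a start, held 11 windows for 7 of the 10 genes (RSPO3, LGR4, LGR6, RNF43, DKK1, LEF1 and TCF7). CTTTGAT or CTTTGAA was found in 1 of the 11 windows, that of DKK1, where a single CTTTGAA began 95 bases before the start. In all 35116 windows of the table, 6.86% held at least 1 of these forms, 2.62% CTTTGAT and 4.43% CTTTGAA. The looser CTTTGNN, which includes both forms, was found in 7 of the 11 windows, against 47.2% of all windows. By gene, 6 of the 7 had at least 1 window with a match, LGR4 being the exception. Genes with several windows have more chances of a match, and no share by gene over the whole table was computed. The GC content of the RSPO3 window was 65.3% and that of the DKK1 window 63.7%, against a median of 58.7% over all windows. The LGR4 window and the LGR6 window of the stretch shown had 61.3% and 55.3%, and the other LGR6 windows 49.7% and 53.3%. The ratio of observed to expected CpG was 0.521 for RSPO3, 0.659 for DKK1, 0.666 for LGR4 and 0.491 for that LGR6 window, with a median of 0.579 over all windows. The other LGR6 windows had ratios of 0.270 and 0.460. These matches are letters in a window and not measured sites.

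RSPO3, the R-spondin ligand, was close to absent in KO libraries. RSPO3 (ENSG00000146374, chromosome 6) was measured at 74.1, 60.7 and 67.1 CPM in the control libraries and at 1.27, 1.16 and 1.16 CPM in the KO libraries, from 1744, 1099 and 1952 against 29, 57 and 26 counts. The lowest control library lay far above the highest KO library, and the KO libraries differed by less than their counting error, whose exact Poisson intervals (95%, counting error only) ran from 0.757 to 1.82 CPM. The mean KO level was 1.77% of the control level, a log2 fold change of -5.83 (SE 0.10), which placed it at rank 10 from the lowest among the 17767 genes tested. Since these are bulk libraries, fewer cells expressing a gene and less RNA per cell cannot be told apart. The other R-spondin genes gave almost no reads in either genotype. RSPO1 had 3 counts over the control and 7 over the KO libraries, RSPO2 had 0 and 1, and RSPO4 had 0 in all 6 libraries.

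**Figure D1:**
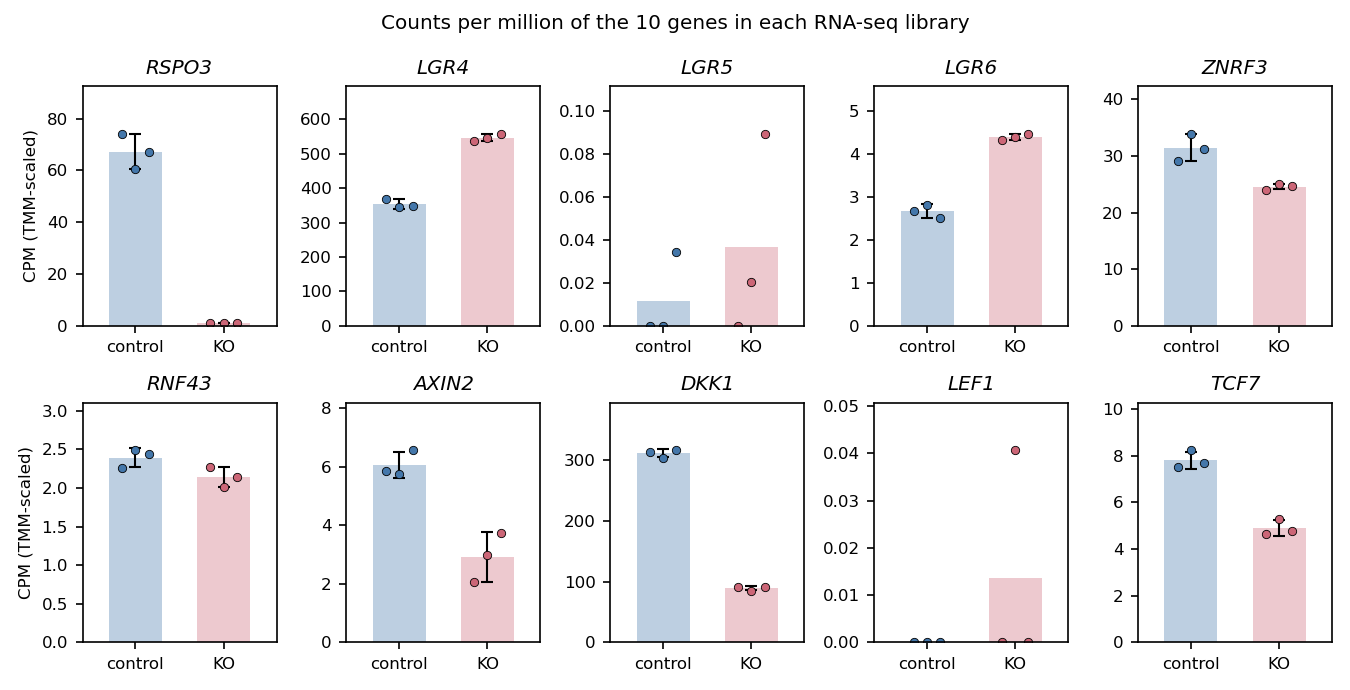
Levels of the 10 genes in CPM (vertical axes from 0, a scale of their own in each panel) in the 3 control and 3 KO libraries; points are libraries, bars are means and error bars are SD, left out for LGR5 and LEF1, which had at most 2 counts in any library. RSPO3 went from 60.7 to 74.1 CPM in control to 1.16 to 1.27 CPM in KO, and RNF43 is the tested gene whose points overlap between genotypes.

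Across the gene table, edgeR's quasi-likelihood test called 62.8% of the 17767 genes tested at an adjusted p under 0.05 (Benjamini-Hochberg over all genes), 32.8% higher and 30.0% lower in KO, and for 65.8% the CPM ranges of control and KO were separate. Of the 9 genes other than RSPO3, 7 had enough counts to be tested. Of these 7, 2 were higher and 4 were lower, and 6 did not overlap between genotypes. With so large a share of all genes called, these counts are given beside the background and nothing is read from them. The labels do not say whether the 3 libraries of a genotype came from separate cultures, so p-values measure the spread between these libraries, which may be technical.

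Among the R-spondin receptors, LGR4 and LGR6 rose and LGR5 had too few counts to be tested. LGR4 (ENSG00000205213, chromosome 11), a receptor with a leucine-rich repeat ectodomain, was at 370, 345 and 349 CPM in control and 538, 545 and 558 CPM in KO libraries. Every KO library lay above every control library, with coefficients of variation of 3.82% and 1.79%. The KO mean was 1.54 times the control mean, a log2 fold change of 0.63 (standard error 0.041; adjusted p 1.7e-13 by edgeR). LGR6 (ENSG00000133067, chromosome 1), its relative, was at 2.68, 2.82 and 2.51 CPM in control and 4.32, 4.38 and 4.46 CPM in KO libraries, again without overlap. This was 1.65 times the control mean, a log2 fold change of 0.73 (standard error 0.13; adjusted p 1.7e-05 by edgeR), from 51 to 73 counts per control library. The intervals of the LGR4 and LGR6 log2 fold changes, 0.55 to 0.71 and 0.48 to 0.98, overlap, and their difference was not tested. LGR5 (ENSG00000139292, chromosome 12), a marker of intestinal stem cells, had 0, 0 and 1 counts in control and 0, 1 and 2 counts in KO libraries. Taken as an upper limit alone, a count of 0 allows up to 3 counts, or 0.127 to 0.166 CPM in the 3 libraries with 0 LGR5 counts. The exact Poisson intervals (95%) of these libraries reached 0.157 to 0.204 CPM. The LGR5 ratio of KO to control per unit of depth had a counting interval of 0.18 to 118, so no direction is given.

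Of the membrane ligases that R-spondins clear, ZNRF3 fell and RNF43 did not pass the test. ZNRF3 (ENSG00000183579, chromosome 22) was at 29.2, 33.9 and 31.3 CPM in control and 24.1, 24.98 and 24.8 CPM in KO libraries. The KO libraries lay close together and all below the controls, at 78.2% of the control mean, a log2 fold change of -0.35 (standard error 0.062; adjusted p 2.1e-05 by edgeR). RNF43 (ENSG00000108375, chromosome 17) was at 2.25, 2.48 and 2.44 CPM in control and 2.27, 2.01 and 2.14 CPM in KO libraries. The RNF43 ranges overlap, and its log2 fold change was -0.18 with an interval of -0.48 to 0.12 (edgeR adjusted p 0.33). The interval includes the ZNRF3 value, so the 2 ligases are not shown to differ.

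The secreted inhibitor DKK1 had the lowest log2 fold change among the 7 tested genes other than RSPO3. DKK1 (ENSG00000107984, chromosome 10), which binds LRP5 and LRP6 and blocks WNT co-receptor activity, was at 314, 303 and 316 CPM in control and 91.3, 85.2 and 90.9 CPM in KO libraries. The genotypes were well separated and the libraries of each lay close together, with coefficients of variation of 2.12% and 3.85%. The control mean was 3.49 times the KO mean, a log2 fold change of -1.81 (standard error 0.044; adjusted p 2.4e-23 by edgeR), rank 214 from the lowest among all tested genes.

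AXIN2, the scaffold of the destruction complex that is widely read as a transcriptional reporter of WNT activity, fell with a wide spread among KO libraries. AXIN2 (ENSG00000168646, chromosome 17) was at 5.86, 5.74 and 6.56 CPM in control and 2.05, 2.98 and 3.74 CPM in KO libraries. All KO libraries lay below all controls, at 48.3% of the control mean, a log2 fold change of -1.05 (standard error 0.14; adjusted p 4.7e-07 by edgeR). The coefficient of variation was 29.0% in KO and 7.31% in control libraries. The lowest and highest KO libraries, with 47 and 84 counts, had Poisson intervals of 1.51 to 2.73 and 2.99 to 4.63 CPM that do not overlap, so they differed by more than counting error. Leaving out KO replicate 1 gave a log2 fold change of -0.90 and leaving out KO replicate 3 gave -1.20, both past the threshold.

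Of the TCF/LEF factors among the 10 genes, TCF7 fell and LEF1 gave almost no reads. TCF7 (ENSG00000081059, chromosome 5) was at 7.52, 8.23 and 7.69 CPM in control and 4.63, 5.30 and 4.77 CPM in KO libraries. The genotypes did not overlap, and the KO mean was 62.7% of the control mean, a log2 fold change of -0.65 (standard error 0.10; adjusted p 3.3e-06 by edgeR). LEF1 (ENSG00000138795, chromosome 4) had 0 counts in all control libraries and 0, 2 and 0 counts in KO libraries, at or below the 3 counts that an observed 0 allows, so no LEF1 fold change is given.

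**Figure D2:**
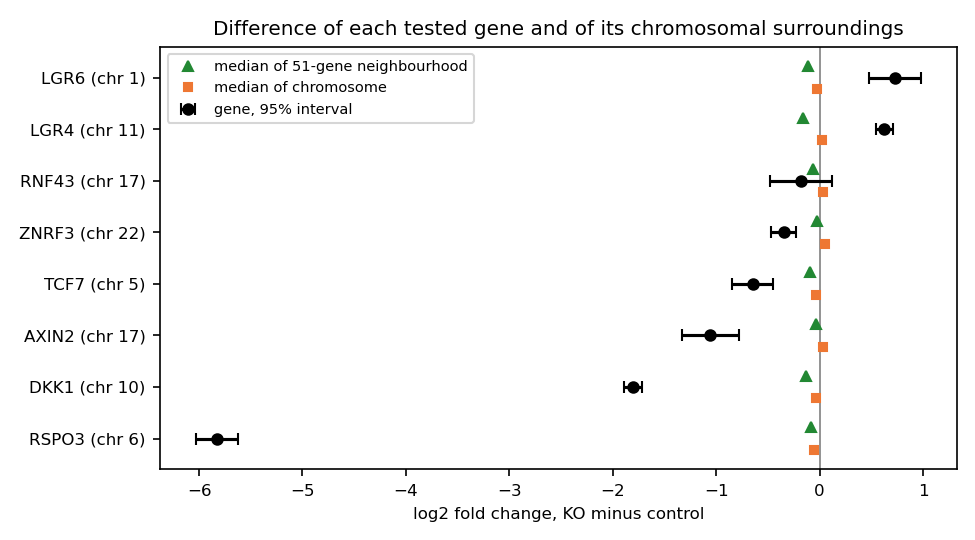
Log2 fold change (KO minus control, horizontal axis) of the 8 tested genes with 95% intervals, beside the median of the 51 tested genes around each (triangles) and of its chromosome (squares). The 8 genes run from -5.83 for RSPO3 to 0.73 for LGR6, while the neighbourhood medians run from -0.16 to -0.028.

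The differences were set beside those of nearby genes, because chromosomes differed in their median. The median log2 fold change over the 51 tested genes centred on each gene, in RefSeq order, was -0.079 for RSPO3, -0.16 for LGR4, -0.11 for LGR6, -0.028 for ZNRF3, -0.061 for RNF43, -0.030 for AXIN2, -0.13 for DKK1 and -0.088 for TCF7. Chromosome medians for these 8 genes ran from -0.051 to 0.052, and the median of all tested genes was 0.0038. With the neighbourhood median subtracted, LGR4 was at 0.78, LGR6 at 0.84, DKK1 at -1.67, AXIN2 at -1.02, TCF7 at -0.56, ZNRF3 at -0.32 and RNF43 at -0.12.

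Of the 10 genes next to RSPO3, 2 were tested, and both had log2 fold changes far nearer 0 than that of RSPO3. The 5 genes of the table before it in chromosome order (MIR588, RNU6-200P, YAP1P3, PRELID1P1 and RPS4XP9) and 3 of the 5 after it (RNA5SP217, YWHAZP4 and RPL5P18) had too few counts to be tested. RNF146, the next gene after RSPO3 and a ubiquitin ligase that marks axin for breakdown, went from 17.4 ± 0.43 to 20.4 ± 1.12 CPM (SD, n = 3), a log2 fold change of 0.23 (edgeR adjusted p 0.0052). ECHDC1, an enzyme of acyl-CoA breakdown, was at 51.5, 46.5 and 49.5 CPM in control and 46.5, 45.8 and 48.7 CPM in KO libraries (log2 fold change -0.071, edgeR adjusted p 0.25). The nearest tested gene before RSPO3 was CENPW, a centromere protein gene, with a log2 fold change of -0.69 (edgeR adjusted p 7.4e-08). PTPRK, a receptor phosphatase gene known from fusions with RSPO3 in colorectal cancer, went from a mean of 49.5 to 98.9 CPM, a log2 fold change of 1.00 (edgeR adjusted p 1.2e-16); CENPW and PTPRK were chosen after their values were seen. Over the 50 other tested genes of the neighbourhood, 18 were higher, 16 lower and 16 not past the threshold, beside 32.8% higher and 30.0% lower among all genes tested, and their log2 fold changes ran from -1.03 to 3.44.

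**Figure D3:**
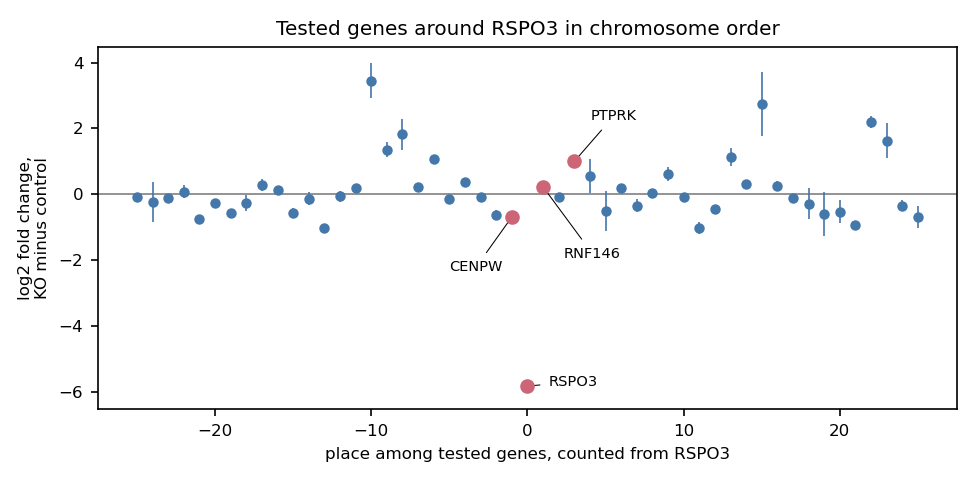
Log2 fold change (KO minus control) of the 51 tested genes around RSPO3, by place in chromosome order counted from RSPO3, with 95% intervals. RSPO3 lies at -5.83 and every other gene of the window between -1.03 and 3.44.

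The rest of the pathway was described with 7 lists by role, 111 genes in all, of which 84 were tested, 33 higher, 33 lower and 18 not past the threshold. The share called was 78.6%, beside 62.8% of all genes tested. Each list's counts stand beside the 32.8% higher and 30.0% lower among all genes, and list medians beside the 0.0038 of all genes; nothing particular to a list is read from them. Of 10 tested WNT ligands, 5 were higher and 4 lower (all genes, 32.8% and 30.0%), with a median log2 fold change of 0.24. WNT9A rose from 1.92 ± 0.10 to 23.02 ± 1.03 CPM (SD, n = 3; log2 fold change 3.59, edgeR adjusted p 8.1e-22). WNT7A had 2 counts over the control libraries and 147 over the KO libraries, a ratio of 55.0 per unit of depth with a counting interval of 14.9 to 458. Both control counts lay in replicate 3, and leaving that library out moved the fitted log2 fold change from 5.57 to 8.41, a value against 0 counts that depends on the prior count of the fit. WNT5B fell from 0.786 to 0.263 CPM and WNT9B rose from 0.160 to 0.612 CPM, at 59 and 26 counts and at 11 and 53 counts in all. The control libraries of WNT5B were spread, at 0.637, 0.552 and 1.17 CPM. Leaving out control replicate 3 moved the WNT5B log2 fold change from -1.58 to -1.12 (edgeR adjusted p 0.022). WNT7B, the ligand with the most counts, was at 79.2, 101 and 115 CPM in control and 33.8, 36.2 and 29.7 CPM in KO libraries, a fall of all KO libraries below all controls (log2 fold change -1.55, edgeR adjusted p 0.0010); it was named after its values were seen. Porcupine (PORCN) and WLS, which acylate and carry WNT proteins for secretion, both rose, by log2 fold changes of 0.48 and 0.31; they were the 2 tested genes of a list of 5.

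Of 15 tested receptor genes, 4 were higher and 8 lower (all genes, 32.8% and 30.0%), with a median log2 fold change of -0.15. FZD8, a Frizzled receptor, fell from 12.4 ± 1.40 to 1.85 ± 0.28 CPM (SD, n = 3; log2 fold change -2.71, edgeR adjusted p 4.4e-17), and FZD1 rose from 5.27 ± 0.59 to 13.3 ± 1.32 CPM (SD, n = 3; log2 fold change 1.35, edgeR adjusted p 3.0e-12). ROR2 and PTK7, co-receptors of non-canonical WNT signalling, fell by 2.33 and 1.80 on the log2 scale. The DKK1 receptors LRP5 and LRP6 rose, by log2 fold changes of 1.08 and 0.27; both were chosen after their values were seen.

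Of 17 genes of the inhibitor list, 7 were tested. Of these 7, 6 were lower and 1 was higher (all genes, 30.0% and 32.8%), with a median log2 fold change of -0.91 against 0.0038 for all genes. That median is the value of a single gene with few counts, SFRP5. The count of lower genes was 4 with DESeq2 and 4 without control replicate 2. SFRP1 and SFRP4, secreted proteins that bind WNT, fell by 1.26 and 1.19 on the log2 scale, SFRP1 from 67.0 ± 1.26 to 27.95 ± 1.21 CPM (SD, n = 3; edgeR adjusted p 7.2e-18). TRABD2A, a membrane protease that cleaves WNT, fell by 1.84 on the log2 scale and lies on chromosome 2 (median of its genes, -0.54). SFRP5 fell by 0.91 on the log2 scale on few counts, 48 and 34 in all; its edgeR adjusted p of 0.013 became 0.059 without control replicate 2 and 0.095 without KO replicate 2, and 0.090 with DESeq2. DKK3, a divergent relative of DKK1 and the 1 higher gene, named after its values were seen, rose from 19.5 ± 0.36 to 35.3 ± 1.80 CPM (SD, n = 3; log2 fold change 0.86).

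Genes of the destruction complex list, which leaves out AXIN2 (log2 fold change -1.05, described above), moved little. Of 22 tested genes 9 were higher, 6 lower (all genes, 32.8% and 30.0%) and 7 not past the threshold, and all had log2 fold changes between -0.42 for USP34, on chromosome 2, and 0.29 for BTRC. AMER1 and CSNK1E fell by 0.38 each on the log2 scale. CTNNB1, which encodes beta-catenin itself, was at 367 ± 2.32 and 322 ± 7.77 CPM (SD, n = 3; log2 fold change -0.19, edgeR adjusted p 0.00014), and was named after its values were seen. Among 14 tested nuclear partners of beta-catenin, 8 were higher and 1 lower, PYGO1 (all genes, 32.8% and 30.0%), with a median of 0.21. The co-repressor TLE2 rose from 2.24 ± 0.23 to 9.44 ± 1.58 CPM (SD, n = 3; log2 fold change 2.10, edgeR adjusted p 3.9e-13), TLE5 by 1.24 and TLE3 by 0.85; both TLE2 and TLE5 lie on chromosome 19 (median of its genes, 0.34). CTNNBIP1, which keeps beta-catenin from TCF factors, had a log2 fold change of 0.60. TCF7L2 was at 14.7 ± 1.17 and 15.6 ± 0.41 CPM (SD, n = 3; log2 fold change 0.082, edgeR adjusted p 0.35) and TCF7L1 at 0.814 and 0.707 CPM (edgeR adjusted p 0.49). PYGO1 and these other TCF/LEF genes were named after their values were seen.

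Of 14 tested genes among other WNT targets, 4 were higher and 8 lower (all genes, 32.8% and 30.0%), with a median log2 fold change of -0.51. TNFRSF19, NKD1, TBX3 and EPHB3 had the largest differences, all falls, of 2.19, 1.87, 1.82 and 1.69 on the log2 scale. NKD1, like AXIN2 a feedback inhibitor, went from 1.09 ± 0.16 to 0.292 ± 0.064 CPM (SD, n = 3; edgeR adjusted p 3.4e-06), from 5 to 30 counts per library. TBX3 fell from 31.9 ± 0.92 to 9.08 ± 0.66 CPM (SD, n = 3; edgeR adjusted p 1.1e-18) and lies on chromosome 12 (median of its genes, 0.37). SOX9, which is also known as a target, rose from 28.6 ± 0.25 to 58.99 ± 2.66 CPM (SD, n = 3; log2 fold change 1.05), and CD44 was at 333 and 331 CPM (edgeR adjusted p 0.84). MYC, a widely cited target, fell from 92.6 to 50.3 CPM (log2 fold change -0.88), and CCND1, which encodes cyclin D1, from 230.2 to 181 CPM (log2 fold change -0.35). SOX9, CD44, MYC and CCND1 were chosen after their values were seen.

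**Figure D4:**
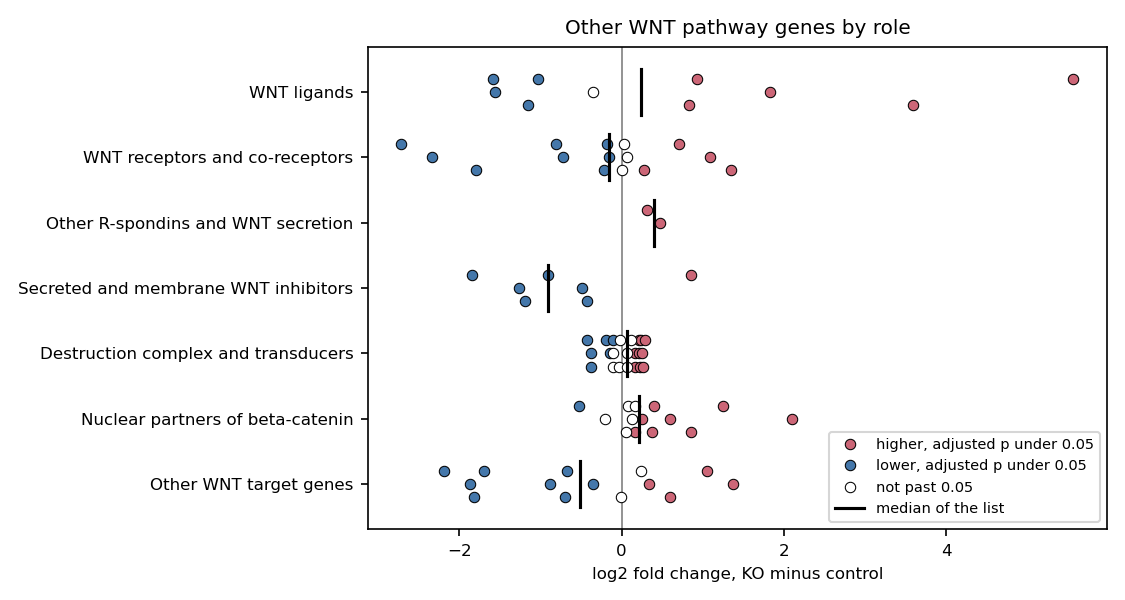
Log2 fold change (KO minus control) of the 84 tested genes of the 7 pathway lists; each point is a gene, filled where its adjusted p is under 0.05, and vertical bars are list medians. List medians run from -0.91 for the inhibitors, the value of SFRP5, to 0.39 for the list with PORCN and WLS. Points of the destruction complex list, which leaves out AXIN2, lie between -0.42 and 0.29.

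To place the profile of RSPO3 among all genes, log2(CPM + 1) was centred on its mean over the 6 libraries and compared by Euclidean distance with 14471 genes of at least 1 CPM on average. The 5 nearest were FAM133A, CYP4F11, NPR3, NTRK3 and SRGN, at distances of 0.143 to 1.03. CYP4F11 went from 79.6 to 2.41 CPM, NPR3 from 79.5 to 0.828, SRGN from 40.9 to 1.40 and NTRK3 from 20.4 to 0.0351 CPM. FAM133A had 2100 counts over the control libraries and 1 count over the KO libraries. The choice rests on the pseudocount, since with 0.1 in place of 1 the nearest were DRD1, MYOCD, MARCHF4, UNC5D and CYP4F11, of which 1 was shared.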

How the data were processed

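Per the labels' protocols, libraries were made from total RNA with a stranded kit. The deposited gene table holds whole-number counts per gene as the authors left them; the submitters' processing notes name STAR 2.6.1c, edgeR 3.30.0 and hg19, with no role, while the counting tool and how it used strand is not given in the sources used here, so reads of overlapping or antisense genes may be shared. Of 62486 gene IDs, 93.8% matched a symbol, and 0 columns went unmapped. Counts were fitted in R 4.3.3 with edgeR 4.0.16 (filterByExpr, TMM, robust quasi-likelihood test with a single term for genotype, Benjamini-Hochberg at 0.05 over 17767 genes); SEs are the log2 fold change divided by the root of F. Gene order came from RefSeq GRCh38.p14, which placed 87.8% of tested genes. Named were the 10 genes, the 4 largest changes past 0.05 of each list (at least 10 counts in 1 genotype), the 5 neighbours of RSPO3 on each side and the 5 nearest profiles; RSPO1, RSPO2 and RSPO4 and the cell markers, which complete their families or lists, stand outside this rule, and other genes outside it are marked. The genes, lists and rules were chosen with earlier results of these data known. No pair of libraries agreed within sampling noise. Alternatives used DESeq2 1.42.0, limma 3.58.1 voom, other scalings and filters, a replicate block and each library left out. Figures and summaries used Python 3.11.15. Peaks, compartments and proteins of these genes were not analysed here, for want of an annotation of the files' build and of a protein table.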

Additional observations from a re-analysis of the deposited data

How the results depend on the processing

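Of 815 values under alternatives, 807 held, 5 moved and 3 lost their call, all 3 those of SFRP5 given above, and none reversed. Calls were followed gene by gene only for the tested genes of the set and the largest changes of each list. Counts were taken as held within a fold limit, so some held counts differ. Lower receptor genes went from 8 to 6 without KO replicate 1. Higher destruction complex genes went from 9 to 6 without KO replicate 2. RSPO3 ranged from -5.89 to -5.75 over its 16 alternatives. LGR4, LGR6, ZNRF3, AXIN2, DKK1 and TCF7 kept direction and call in all 15 alternative fits, and RNF43 passed 0.05 in 0 of them. Subtracting the neighbourhood moved LGR4 to 0.78, LGR6 to 0.84 and DKK1 to -1.67 by construction. The looser motif CTTTGNN matched 6 genes in place of 1, by construction, and the nearest profiles shared 1 of 5 genes under a pseudocount of 0.1, a setting chosen after seeing the data. Of all called genes, 52.2% were higher, 48.4% under upper quartile scaling and 55.7% with library size only; the scalings moved the median of all genes by less than 0.1. Deviations of same-numbered libraries from their genotype means had correlations of 0.21, 0.13 and 0.071. Of the 6 libraries, 5 were closest to their own number. Whether same-numbered libraries share a condition was not tested, and the main fit had no term for it. The replicate block called 6060 genes higher and 5595 lower, 2 and 4 of the 9 genes, and 35 and 35 pathway genes. With the CPM filter, WNT5B, WNT9B, NKD1 and SFRP5 gave no value, and without mitochondrial genes WNT9B gave none, with 4 WNT ligands higher in place of 5.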
